A study of Mus musculus with 6 samples.

Results

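The genes described here were the 5 NF-κB subunits (Nfkb1, Nfkb2, Rel, Rela and Relb), 3 classical IκB inhibitors (Nfkbia, Nfkbib and Nfkbie), the IκB-like protein gene Bcl3 and the feedback inhibitor gene Tnfaip3. They were chosen by symbol, with the genotype contrast of these same counts already known, and all 10 were found among the 22322 genes of the deposited table. Their differences between genotypes are therefore given as a description, without a test of their own. RNA was sequenced from double-positive (DP) thymocytes, the CD4+CD8+ stage at which T cell precursors express a complete antigen receptor and undergo selection. Cells were sorted by flow cytometry from untreated C57BL/6 mice of both sexes aged 4 to 7 weeks. The 3 libraries labelled cKO came from mice with both Paxbp1 alleles floxed and a Lck-cre transgene (Paxbp1fl/fl Lckcre), and the 3 control libraries, labelled WT, from Paxbp1fl/fl littermates without Cre. Both groups therefore carried the floxed alleles, and Cre was driven by the Lck promoter, which acts in the T lineage before the DP stage. The control mice lacked the transgene, so effects of Cre itself cannot be told apart from those of the deletion.

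NF-κB proteins act as dimers. Rela, Rel and Relb carry transactivation domains, whereas the products of Nfkb1 and Nfkb2 are made as precursors, p105 and p100, that are processed to the DNA-binding subunits p50 and p52. In resting cells IκB proteins hold the dimers in the cytoplasm until the IκB kinase (IKK) complex phosphorylates the inhibitor and marks it for degradation. Several genes of the system are themselves transcribed by NF-κB, among them Nfkbia and Tnfaip3, which closes a negative feedback loop. In the thymus, the pathway is known to act downstream of the pre-antigen receptor, the antigen receptor and receptors of the tumour necrosis factor family.

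RefSeq promoter windows of build GRCm38.p6, which run from 250 bases before to 50 bases after a transcript start, were at hand for 8 of the 10 genes. None was at hand for Nfkb1 and Relb. Both strands were searched for the κB consensus, the decamer bound by NF-κB dimers, and overlapping matches were counted. It was found in windows of 6 of these 8 genes (75.0%), namely Nfkb2, Rel, Nfkbia, Nfkbie, Bcl3 and Tnfaip3, and these letters did not occur in the windows of Rela and Nfkbib. Over all genes with a window, 1388 of 27025 (5.14%) held a match, and over the genes tested for a genotype difference 544 of 9154 (5.94%). The matched stretches are printed because they are a sequence feature that 6 of these genes share and that the choice of symbols did not name. Matched letters are in capitals, each stretch is written 5′ to 3′ on the strand of its gene, and a match describes letters only and does not show binding.
Nfkb2, chr19:46304683-46304750, plus strand: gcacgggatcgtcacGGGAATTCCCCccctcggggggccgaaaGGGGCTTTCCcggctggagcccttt
Rel, chr11:23771036-23771076, minus strand: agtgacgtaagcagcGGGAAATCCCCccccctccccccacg
Nfkbia, chr12:55492652-55492691, minus strand: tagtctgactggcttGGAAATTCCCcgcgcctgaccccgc
Nfkbie, chr17:45555579-45555618, plus strand: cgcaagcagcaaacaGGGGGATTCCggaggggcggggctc
Bcl3, chr7:19822729-19822768, minus strand: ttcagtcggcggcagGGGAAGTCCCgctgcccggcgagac
Tnfaip3, chr10:19015398-19015550, minus strand: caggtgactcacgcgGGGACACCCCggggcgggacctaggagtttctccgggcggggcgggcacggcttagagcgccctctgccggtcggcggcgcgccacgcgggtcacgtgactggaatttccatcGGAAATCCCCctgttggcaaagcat

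The match nearest to the start was that of Bcl3, which began at base 3 when the start itself is counted as base 1. In Nfkbia the match began 29 bases upstream, in Rel 92 and in Nfkbie 106 bases upstream. Tnfaip3 held 2 separate matches, 125 and 12 bases upstream. In the first of the 3 Nfkb2 windows, matches began 39 and 11 bases upstream, and the other windows of this gene held further ones. Among genes other than the 10 that passed the test in the genotype comparison, 41 of 407 that were higher in the cKO libraries (10.1%) and 36 of 531 that were lower (6.78%) held a match.

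**Figure D1:**
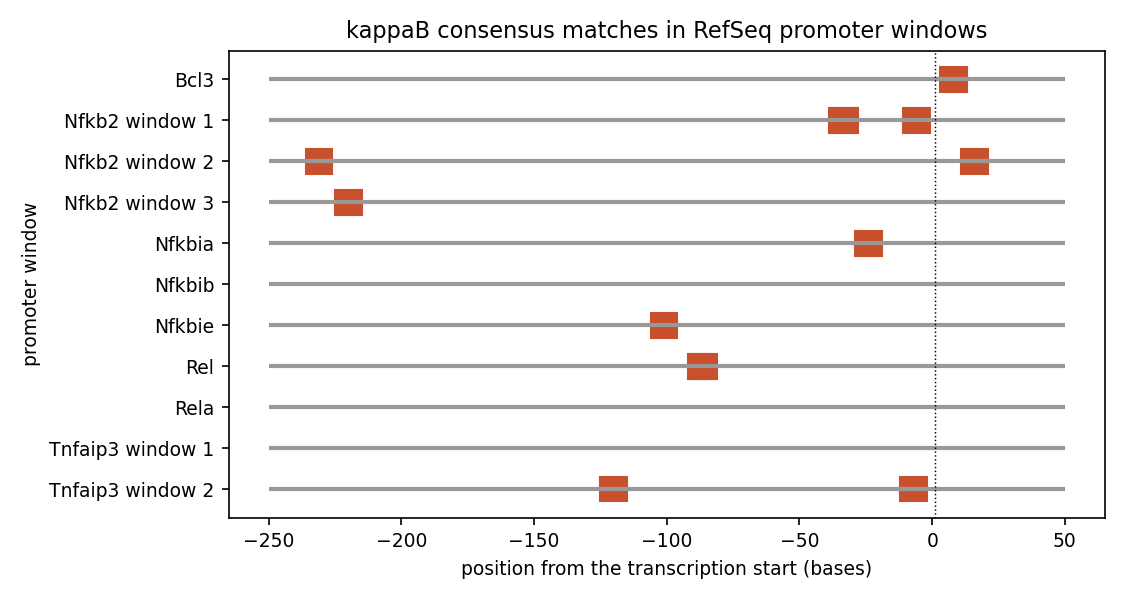
Positions of the κB consensus in the RefSeq promoter windows of the genes, with the distance from the transcript start in bases on the horizontal axis and 1 line per window. Marks show where a match lies, and the 8 windows with a match belong to 6 genes, with none in those of Rela and Nfkbib.

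Library totals ranged from 18963775 to 26252248 counts, so that 1 count stood for 0.0388 to 0.0521 CPM (counts scaled to a common library size). Of 11488 genes that passed the filter on low counts, all 10 among them, 514 (4.47%) were higher and 677 (5.89%) lower in the cKO libraries at an adjusted p below 0.05 (edgeR, quasi-likelihood test). The sources do not say that each library came from a separate mouse, so p-values measure only the spread between these libraries. Counts of Paxbp1 itself were 774, 318 and 400 in the control and 851, 905 and 1075 in the cKO libraries. A count over the whole gene does not measure the floxed exon 8, and each direction below therefore rests on the labels. Cd4 (162 to 292 CPM) and Cd8a (1376 to 2141 CPM) were detected in every library. In RNA from sorted populations, fewer cells of a type and less RNA per cell cannot be told apart.

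Transcripts of all 10 genes had a positive log2 fold change of cKO over control, with a median of 1.31 against −0.002 over all tested genes. The 4 with the highest folds were Bcl3, Relb, Nfkb2 and Nfkbie, and the 3 with the lowest were Nfkb1, Nfkbib and Tnfaip3. Of the 10, 5 (Nfkb2, Rela, Relb, Nfkbie and Bcl3) were among the 4.47% of tested genes called higher, and none was among the 5.89% called lower by edgeR, nor by DESeq2 or limma-voom. At an unadjusted p below 0.05 the edgeR counts were 7 higher and 0 lower. With a log2 fold change above 1 as well, 4 genes remained, all but Rela, beside 1.53% of all tested genes. In the same 5 genes every cKO library lay above every control library, which was so for 15.7% of tested genes, and in the other 5 the groups overlapped. Nothing is read from these shares, since the genes were chosen with this contrast known. Bcl3 moreover passed the filter on low counts only through its cKO libraries, since control 1 and control 2 held 1 and 3 counts. It was thus tested only because it was detected there, and its call gives no support. Just inside the threshold lay Bcl3 (adjusted p = 0.0364, edgeR) and Rela (0.0384), and just outside it Nfkbia (0.0521) and Rel (0.0553). The count moved with the library left out: it was 7 without control 1, 2 without control 2 and 4 without control 3. It was 2 without cKO 1, 5 without cKO 2 and 1 without cKO 3, where Nfkbie alone was called. Calls over all tested genes moved as well. In the same order 1000, 178, 285, 179, 332 and 42 genes were higher, against 514 with all libraries.

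**Figure D2:**
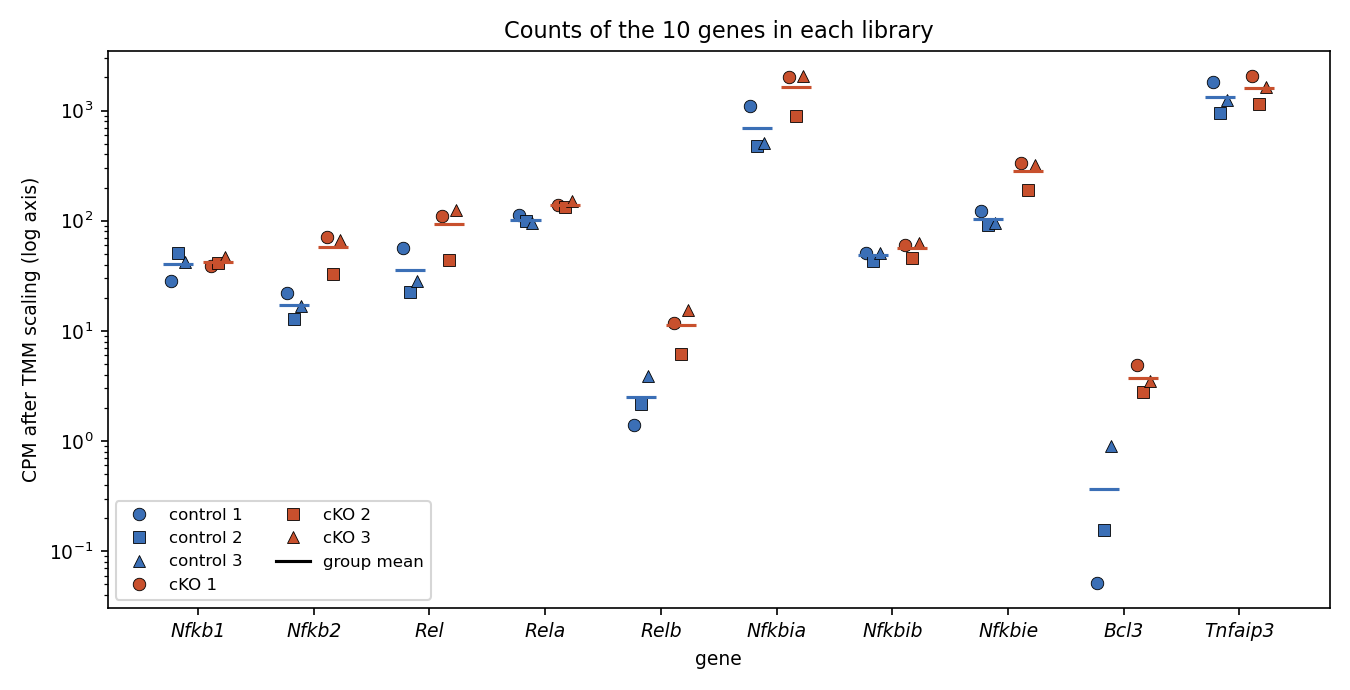
CPM after TMM scaling of each gene in each of the 6 libraries, on a log axis, with blue symbols for control and red symbols for cKO libraries and a bar at each group mean. Every cKO library lies above every control library for Nfkb2, Rela, Relb, Nfkbie and Bcl3, and cKO 2 is the lowest cKO library for 9 of the 10 genes.

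Among the subunits, Nfkb2, the gene of the p100 precursor and of p52, had 22.0, 12.9 and 16.9 CPM in control 1, 2 and 3. It had 71.6, 32.9 and 67.1 CPM in cKO 1, 2 and 3. All cKO libraries lay above all controls, with cKO 2 nearest to them. The mean went from 17.3 ± 4.61 to 57.2 ± 21.2 CPM (SD, n = 3 each), a log2 fold change of 1.73 ± 0.30 (SE). Nfkb2 lies on chromosome 19 from 46304320 to 46312385 on the plus strand (GRCm38). Psd and AC114539.1 on the other strand span some of its exonic bases, and since strand use in counting was not given, their reads cannot be separated.

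Relb encodes the subunit that pairs mainly with p52 in the alternative pathway. Its control libraries held 27, 42 and 101 counts and its cKO libraries 256, 119 and 338 counts. In CPM these were 1.40, 2.16 and 3.92 against 11.7, 6.20 and 15.6, again without overlap and again with cKO 2 lowest. The fitted log2 fold change was 2.15 ± 0.45. From the summed counts, 170 against 713, the depth-scaled ratio was 4.37 with an exact 95% interval of 3.69 to 5.20. That interval covers counting error only and leaves out the spread between libraries.

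Rela encodes p65, the main transactivating subunit of the canonical pathway. It had 112, 99.6 and 95.3 CPM in the control and 138, 133 and 151 CPM in the cKO libraries. The groups were close together but did not overlap, and the log2 fold change was 0.46 ± 0.12. Of the 10 genes Rela had the lowest coefficient of variation in both groups, 8.54% in control and 6.62% in cKO libraries.

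Rel, the gene of the lymphoid subunit c-Rel, had 57.0, 22.4 and 28.6 CPM in the control libraries and 109, 43.8 and 125 CPM in the cKO libraries. Control 1 exceeded cKO 2, so the groups overlapped although the log2 fold change was 1.37 ± 0.40. Leaving out control 1 gave 1.86 and leaving out cKO 3 gave 1.09. Nfkb1, the gene of p105 and p50, had 28.3, 50.9 and 42.5 CPM in control and 38.9, 41.0 and 46.6 CPM in cKO libraries. All cKO values lay within the range of the controls, the log2 fold change was 0.06 ± 0.21, and its sign turned without control 1 (−0.15) and without cKO 3 (−0.02).

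Nfkbia encodes IκBα, the inhibitor that is degraded and resynthesised fastest after stimulation. Its levels were 1105, 477 and 510 CPM in control and 2005, 901 and 2052 CPM in cKO libraries. Control 1 lay above cKO 2, and the remaining controls lay below every cKO library. The log2 fold change was 1.24 ± 0.36, and it ranged from 1.03 without control 2 to 1.74 without control 1. Nfkbie, the gene of IκBε, had 122, 92.1 and 95.6 CPM in control and 338, 189 and 322 CPM in cKO libraries. There was no overlap, and the log2 fold change was 1.46 ± 0.21. Nfkbib, the gene of IκBβ, had 51.1, 43.1 and 50.9 CPM against 60.3, 46.0 and 63.2 CPM, with cKO 2 inside the control range and a log2 fold change of 0.22 ± 0.16. Ccer2 and Sirt2 on the other strand span some exonic bases of Nfkbib.

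Bcl3 encodes a nuclear IκB-like protein that binds p50 and p52 homodimers. It was close to absent in 2 of the control libraries, with 1, 3 and 23 counts in control 1, 2 and 3, and had 107, 54 and 76 counts in the cKO libraries. These were 0.0519, 0.154 and 0.893 CPM against 4.88, 2.81 and 3.51 CPM. The groups did not overlap, and the fitted log2 fold change was 3.27 ± 0.84. Control 3 held most of the control counts: without it the log2 fold change was 5.09, a value that depends on the prior of the fit. The summed counts, 27 against 237, gave a depth-scaled ratio of 9.15 (exact 95% interval 6.13 to 14.2, counting error only). Gm16175 on the other strand spans some exonic bases of Bcl3.

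Tnfaip3 encodes A20, a ubiquitin-editing enzyme that shuts off signalling upstream of IKK. It had 1831, 947 and 1245 CPM in control and 2059, 1142 and 1637 CPM in cKO libraries. The groups overlapped broadly, and the log2 fold change was 0.27 ± 0.25. Tnfaip3 was thus among the most abundant transcripts of these genes in both groups while its difference was about as large as its error.

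**Figure D3:**
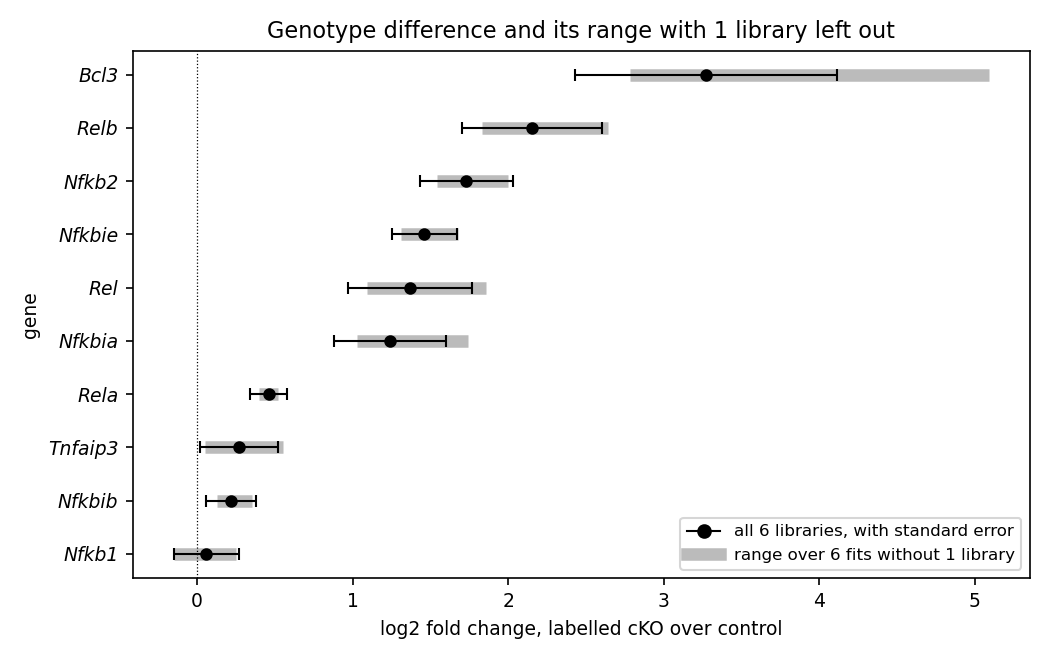
Log2 fold change of cKO over control for each gene with its standard error (edgeR fit over 11488 genes, n = 3 libraries per group). Values run from 0.06 for Nfkb1 to 3.27 for Bcl3, and the standard error is widest for Bcl3, the gene with the fewest counts.

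Levels of different genes were compared in FPKM, the length-scaled unit of the deposited table. In control libraries Nfkbia (441 ± 231 FPKM) and Tnfaip3 (320.3 ± 109 FPKM) were the most abundant, and their ranges overlapped. Nfkbie (42.6 ± 7.48 FPKM), Rela (37.8 ± 3.78 FPKM) and Nfkbib (37.6 ± 3.34 FPKM) followed, and neighbours in this order overlapped as well. Nfkb1 (15.7 ± 4.07 FPKM) stood apart from the genes above and below it. Nfkb2 (5.04 ± 1.46 FPKM) and Rel (4.81 ± 2.54 FPKM) overlapped, and Relb (1.25 ± 0.684 FPKM) and Bcl3 (0.287 ± 0.402 FPKM) came last with overlapping ranges.

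In the cKO libraries the first 5 places were held by the same genes in the same order, here without overlap between neighbours: Nfkbia had 1052 ± 411 FPKM, Tnfaip3 386 ± 100.3, Nfkbie 118 ± 33.8, Rela 54.0 ± 3.88 and Nfkbib 43.7 ± 6.62 FPKM. Nfkb2, with 17.5 ± 6.62 FPKM, stood level with Nfkb1, with 17.3 ± 1.32 FPKM. Rel (12.5 ± 5.73 FPKM) overlapped its neighbours on both sides, and Relb (5.38 ± 2.24 FPKM) and Bcl3 (2.05 ± 0.548 FPKM) remained lowest. Among all tested genes, mean FPKM placed Nfkbia at the 98.9th percentile in control and the 99.6th in cKO libraries, and Bcl3 at the 5.18th and the 19.6th.

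**Figure D4:**
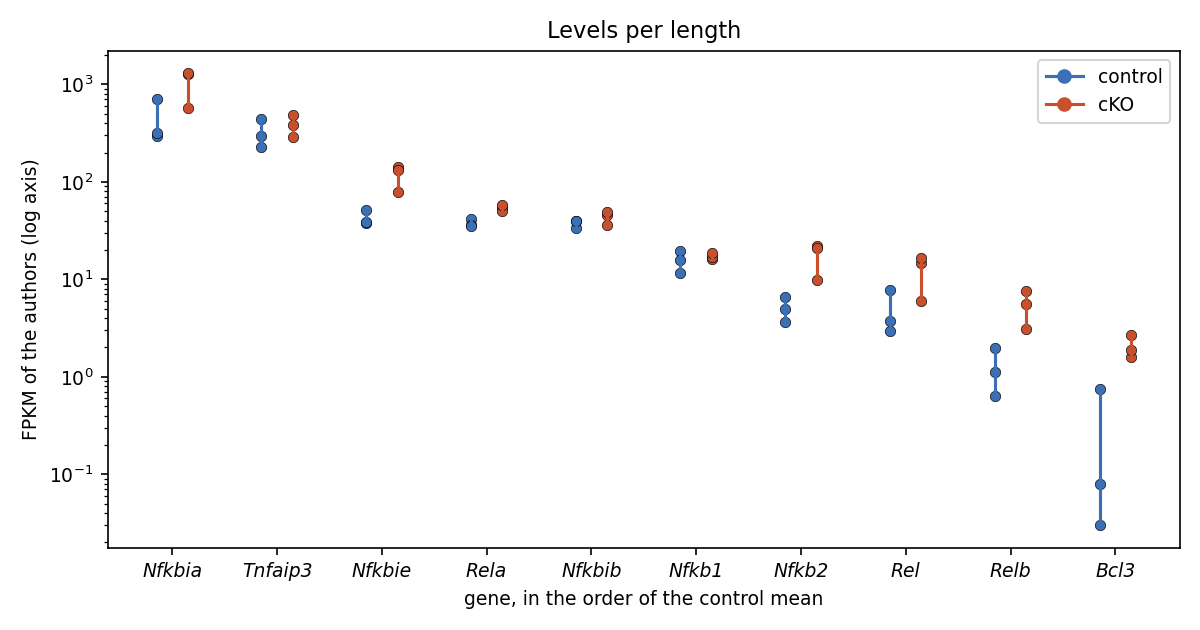
FPKM of each gene in the control and the cKO libraries, on a log axis, with 1 point per library. Nfkbia and Tnfaip3 lie above the other 8 genes in both groups, and Bcl3 is lowest in both.

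The make-up of the subunit pool differed between the groups in part. The sum over the 5 subunits was 68.5, 63.9 and 61.3 FPKM in control and 112, 86.3 and 122 FPKM in cKO libraries, without overlap. Nfkb2 took 9.54, 5.66 and 8.09% of it in control and 19.5, 11.5 and 17.1% in cKO libraries. Relb took 0.934, 1.75 and 3.25% against 4.94, 3.57 and 6.19%, and in neither gene did the groups overlap. The share of Rela was 61.4, 57.1 and 56.9% in control libraries, and at 47.9, 58.4 and 47.7% it was lower in cKO 1 and cKO 3 but not in cKO 2. The 3 inhibitors summed to 798, 370 and 396 FPKM against 1468, 694 and 1480 FPKM. Relative to the subunits this was 11.6, 5.79 and 6.46 against 13.1, 8.04 and 12.1, so that the ratio of inhibitor to subunit transcripts overlapped between the groups, control 1 being the high control library.

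Many of the genes, though not all, ordered the libraries alike. Within the cKO group, cKO 2 was the lowest library in 9 of the 10 genes, all but Nfkb1, and in 34.2% of all tested genes. Within the controls, control 1 was the highest library in 7 of 10, and in 38.6% of tested genes. The full control order (2, then 3, then 1) was shared by Nfkb2, Rel, Nfkbia, Nfkbib, Nfkbie and Tnfaip3, and held in 18.7% of tested genes. Relb and Bcl3, with few counts in control 1, had the order 1, 2, 3 instead. The mean of cKO 1 and cKO 3 was 2.67 times the level of cKO 2 for Rel, 2.25 times for Nfkbia, 2.2 times for Relb and 2.11 times for Nfkb2, against 1.09 times for Rela and 1.04 times for Nfkb1.

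**Figure D5:**
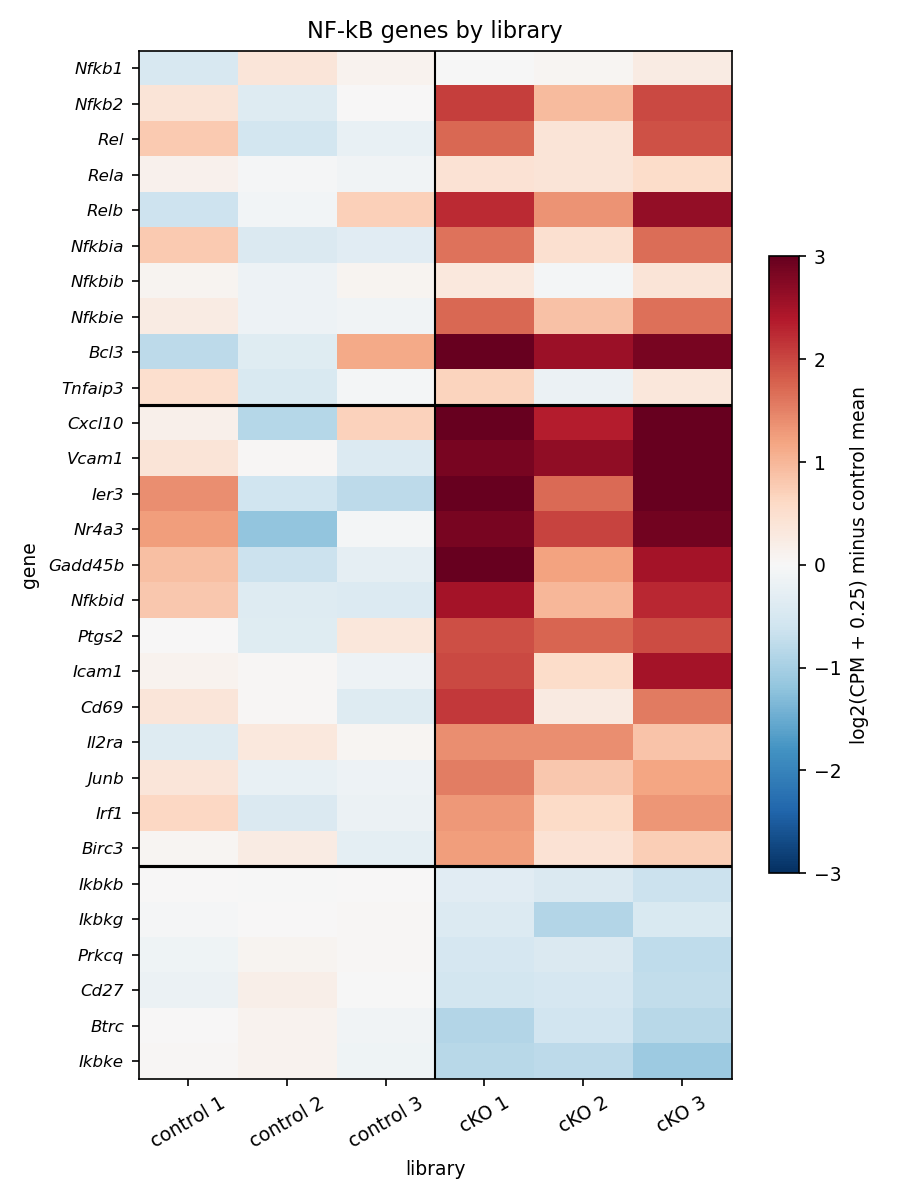
Log2 of CPM plus 0.25 of each gene in each library, relative to the mean of that gene over the 3 control libraries. Genes are rows and libraries columns, with colour limits at 3 on the log2 scale. Below the 10 genes stand 13 genes of the pathway lists that were called higher and 6 that were called lower. Values of cKO 2 are closer to the controls than those of cKO 1 and cKO 3 for most of the 10 genes, and control 1 is the highest control for 7 of the 10.

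The genes whose log2 CPM most resembled 3 of these across the 6 libraries are given as a description. The ranking covered the 9196 tested genes whose mean reached 5 CPM, and the libraries share their genotype groups. For Nfkbia these were Bcl10 (r = 0.999), Tgif1 (0.996), Rrad (0.996), Nip7 (0.994) and Irf1 (0.992), and 103 genes had r above 0.95. For Rel they were Tgif1 (r = 1.0 after rounding), Bcl10 (0.995), Tex10 (0.995), Vps37b (0.993) and Slc2a1 (0.992). Bcl10 and Tgif1 thus stood on both lists. Nfkb1 was most like Hsbp1 (0.992), 4933434E20Rik (0.992), Lnpk (0.99), Brms1l (0.989) and Nek8 (0.988), none of which was on the other lists.

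The rest of the pathway was examined in 5 lists that did not include the 10 genes, of which 92 of 100 listed genes were tested. These lists were written with earlier results of these data known, among them those of Cxcl10, Ier3 and Gadd45b. The shares below are therefore a description only. Of the established NF-κB target genes, 13 of 38 (34.2%) rose and none fell, beside 4.47% and 5.89% of all tested genes. Those that rose include Cxcl10 and Vcam1, which passed the filter on low counts only through their cKO libraries. The median of the target list was a log2 fold change of 0.83. An unadjusted edgeR p was below 0.05 for 19 higher and 5 lower genes of this list, and DESeq2 called 15 higher and 1 lower, limma-voom 15 and 0. The list of the IKK complex and its upstream kinases had calls in the other direction, with a median of −0.17. Of its 18 tested genes 5 (27.8%) fell and none rose, beside 5.89% and 4.47% of all tested genes. Unadjusted, 8 were lower and 3 higher, and DESeq2 called 5 lower and 3 higher, limma-voom 5 and 1. Of 23 antigen receptor and TNF receptor adaptors 1 rose and 1 fell, of 3 relatives of the IκB genes 1 rose, and of 16 brakes on the pathway none passed the edgeR test in either direction. For the brakes, 3 were higher and 2 lower unadjusted, with 2 and 1 called by DESeq2 and 3 and 0 by limma-voom. Over the 5 lists, which share some genes, 13 rose and 6 fell. These totals moved with the library left out, as did the calls over all genes. Without control 1, 2 or 3, 21, 7 and 5 rose, and without cKO 1, 2 or 3, 4, 13 and 2 rose. Without control 1, 8 genes fell. Without control 2 or without cKO 1, 1 gene fell, 3 fell without control 3, 4 without cKO 2 and none without cKO 3.

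Among the targets, the chemokine gene Cxcl10 had the highest fold, from 0.863 ± 0.545 to 20.5 ± 14.6 CPM (log2 4.53 ± 0.70, adjusted p = 0.00669, edgeR). Vcam1 and Icam1, adhesion molecules induced on activated cells, rose by 3.54 ± 0.58 (adjusted p = 0.00825) and 1.89 ± 0.38 (adjusted p = 0.0146) on the log2 scale. Vcam1 had only 0.519, 0.36 and 0.194 CPM in control 1, 2 and 3, and Cxcl10 0.308 CPM in control 2. Like Bcl3, Vcam1 and Cxcl10 passed the filter on low counts only through their cKO libraries, so their calls give no support. Ptgs2, the inducible cyclooxygenase, went from 3.84 ± 0.988 to 14.5 ± 1.16 CPM (log2 1.91 ± 0.27, adjusted p = 0.00495), and its call was kept when any single library was left out, as was that of Cxcl10. The antigen receptor response genes Nr4a3, Cd69 and Il2ra rose by 2.34, 1.47 and 1.24 on the log2 scale, and the groups overlapped for Cd69, whose value in cKO 2 (187.5 CPM) was below that of control 1 (200.6 CPM). Ier3 (2.59), Gadd45b (2.27), Junb (1.19), Irf1 (1.04) and Birc3 (0.83), an inhibitor of apoptosis, rose as well, with overlap for Irf1 (control 1 at 254.4 CPM, cKO 2 at 246.3 CPM). Apart from Ptgs2 and Cxcl10, each of the 13 calls was lost without cKO 3. Those of Junb and Vcam1 were lost in that case only (adjusted p of 0.0523 and 0.0554), and those of the remaining 9 also without 2 or 3 others, with adjusted p of up to 0.155 for Irf1. Nfkbid, which encodes the nuclear IκB protein IκBNS, was on the list of relatives too and rose by 1.95 ± 0.42 (adjusted p = 0.0183), while Nfkbiz had 0.44 ± 0.38 (adjusted p = 0.498).

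In the kinase list both catalytic and regulatory parts of IKK were represented. Ikbkg, the regulatory subunit NEMO, fell by 0.56 on the log2 scale (SE 0.15, adjusted p = 0.0384), from 90.4 ± 2.54 to 61.2 ± 10.4 CPM. Ikbkb, the catalytic subunit IKKβ, fell by 0.47 (SE 0.12, adjusted p = 0.0365), whereas Chuk, the gene of IKKα, had a log2 fold change of 0.02 ± 0.12 (adjusted p = 0.922). The related kinase gene Ikbke fell by 0.91 (SE 0.14, adjusted p = 0.00669). Btrc, the F-box protein that recognises phosphorylated IκB, fell by 0.77, and Prkcq, a protein kinase C gene of T cells, by 0.56. The costimulatory receptor gene Cd27 fell by 0.60. The calls of Ikbkg and Ikbkb were lost on leaving out any library but control 1 (adjusted p of up to 0.109 and 0.159), and that of Ikbke only without cKO 3 (0.0509). Those of Btrc and Cd27 were lost without control 2, cKO 1 or cKO 3 (up to 0.0758 and 0.0976), and that of Prkcq without these or control 3 (up to 0.122). Map3k14, the gene of the NF-κB-inducing kinase of the alternative pathway, had 0.88 ± 0.31 (adjusted p = 0.0957). Among the brakes, Zc3h12a, the gene of regnase-1, had 1.16 ± 0.34 (adjusted p = 0.0533), and Cyld had −0.16 ± 0.15 (adjusted p = 0.521).

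Of the 108 tested genes that the annotation of the authors placed in the KEGG NF-kappa B pathway, the 10 left out, 7 (6.48%) were higher and 8 (7.41%) lower, with a list median of −0.20. The background shares over all genes were 4.47% and 5.89%. Many of the KEGG genes were T cell receptor or immunoglobulin gene segments, most of them with a negative log2 fold change. Some copies of such segments had identical values. The shares and the median include them, and no median without them is given here. Calls not already named were Pidd1, a death domain protein gene (log2 1.65 ± 0.19, adjusted p = 0.00349), and Tnfsf11, the gene of RANKL (1.53 ± 0.36, adjusted p = 0.0268), both higher. Lck, Plcg1, Trac and Trbc2, which belong to the antigen receptor and its proximal signalling, fell by 0.42, 0.49, 0.67 and 0.39. Trav6d-3, a variable segment with close copies, had no count in any cKO library and 0.738 to 1.30 CPM in the controls. Reads of such segments may have been split between copies, and that call is uncertain. Pidd1 kept its call without any single library, and Trac lost it only without cKO 3 (adjusted p = 0.0704). Trav6d-3 lost it without control 2 or cKO 3 (up to 0.0691), Tnfsf11 and Lck without these, control 3 or cKO 1 (up to 0.101 and 0.109), and Plcg1 and Trbc2 on leaving out any library but control 1 (up to 0.164 and 0.169). Leaving out control 1 gave 11 genes in each direction, and leaving out cKO 3 gave 2 higher and none lower. Without control 2 there were 3 higher and 1 lower, without control 3 there were 4 and 2, without cKO 1 there were 3 and 2, and without cKO 2 there were 8 and 4.

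Markers of other cells moved with the genotype. Of 12 tested macrophage markers, 5 rose (Adgre1, C1qb, C1qc, Cd68 and Slc40a1) and none fell, beside 4.47% and 5.89% of all tested genes. Unadjusted, 7 were higher and 1 lower, and DESeq2 called 9 and 0, limma-voom 7 and 0. The summed level of all 20 listed was 29.4 to 54.2 CPM in control and 71.5 to 95 CPM in cKO libraries. Mertk, Vsig4 and Marco were at 0 in every library, and Adgre1 had no count in the controls. Slc40a1 had 0.726, 0.206 and 0 CPM in control 1, 2 and 3. Adgre1 and Slc40a1 thus passed the filter on low counts only through their cKO libraries, and their calls give no support. Of 8 tested dendritic cell markers, 4 rose (H2-Aa, H2-Eb1, Cd74 and Bst2), again beside 4.47% of all tested genes. The same numbers were higher unadjusted and by DESeq2 and limma-voom, with none lower, and all 8 had a positive log2 fold change. The 16 listed summed to 55.6 to 90.7 against 140.2 to 180.8 CPM, with Clec9a at 0 throughout. Itgax, Flt3 and Zbtb46 had at most 2.92 CPM in any library, and their groups overlapped. Of 13 listed NK and innate T cell markers, the 12 found in the deposited table summed to 39.3 to 89.1 against 145 to 169 CPM. Of 5 tested, Gzma rose. Gzma made up most of that sum, and without it the other markers summed to 6.33 to 20.2 CPM in control and 8.03 to 17.1 CPM in cKO libraries, which overlap. The macrophage sum without Lyz2 (26.9 to 38.6 against 52.7 to 70.2 CPM) and the dendritic cell sum without Bst2 (26.4 to 50.2 against 78.7 to 133 CPM), the most abundant gene of each list, did not overlap. Their part in the levels of the NF-κB genes and target genes was not tested.

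Of the 12 DP thymocyte markers, none rose (also unadjusted, and by DESeq2 and limma-voom), beside 4.47% of all tested genes. In the edgeR test 4 fell (Cd8b1, Cd3e, Rag1 and Cd1d1), beside 5.89% of all tested genes. Unadjusted, 7 were lower, and DESeq2 called 6 lower and limma-voom 5. The 12 markers summed to 11775 to 13664 CPM in control and 8735 to 10257 CPM in cKO libraries. Of 15 tested markers of selected and mature thymocytes, Cd69 and Il2ra, which also stand on the target list, rose. Most of the others went the other way: 6 of the 15 had a positive log2 fold change, and the list median was −0.31. Unadjusted, 3 were higher and 4 lower. The sum of the listed markers, 1192 to 1433 against 1136 to 1776 CPM, overlapped between the groups. Without Cd69 it was 992 to 1274 against 945 to 1096 CPM, also with overlap. Of 4 tested B cell markers edgeR called Cd79b, which fell, while DESeq2 called 1 higher and 1 lower and limma-voom 1 lower, with sums of 949 to 1305 against 874 to 916 CPM. None of 6 erythroid markers passed the edgeR test, also unadjusted or by the other tools. Of 4 thymic epithelial markers none passed it, 1 was higher unadjusted and 2 by DESeq2. No neutrophil marker was abundant enough to be tested, with sums of at most 0.156 CPM in control and 0.312 CPM in cKO libraries. The erythroid sum was 27.6 to 142 against 2.47 to 49.0 CPM, and the epithelial sum 40.6 to 46.4 against 45.7 to 47.8 CPM. Whether these differences bear on the NF-κB genes was not tested.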

How the data were processed

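RNA-seq of 3 control and 3 cKO libraries was used. The authors deposited 1 annotated gene table with raw counts and FPKM per library. Its columns of group means, log2 fold change, p-value and FDR hold the comparison of the authors and were not used. The processing notes of the submitters name fastp 0.18.0, Bowtie2 2.2.8, HISAT2, StringTie and RSEM. No source used here gives the genome build, annotation or strand setting of the deposited counts, and the library kit is named differently in the labels and in the methods. Low-input amplification precedes such libraries, and counts without molecular identifiers are not independent molecules, so counting intervals understate the error.

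Counts were fitted with edgeR 4.0.16 in R 4.3.3 (TMM scaling, filterByExpr set to at least 10 counts and a total of 15, quasi-likelihood F-test, genotype as the only term). P-values were adjusted by Benjamini-Hochberg over 11488 genes, with a threshold of 0.05. The common biological coefficient of variation was 0.228. The standard error is the absolute log2 fold change divided by the square root of F. Levels between genes were compared in the deposited FPKM. Replicate files were checked and no pair was alike within sampling noise. Gene positions are from GENCODE M21 on GRCm38, matched by Ensembl identifier.

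The genes and lists were chosen with earlier results of these data known. Named outside the 10 genes were list genes with an adjusted p below 0.05 (at most 20 per list), the 5 genes most correlated with Nfkbia, Nfkb1 and Rel, and markers that moved with the genotype. List genes named without a call were picked after their values were seen. Alternatives were DESeq2 1.42.0, limma-voom (limma 3.58.1), other scalings and filters, a replicate block and leaving out each library.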

Additional observations from a re-analysis of the deposited data

How the results depend on the processing

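No sign of a log2 fold change of the 10 genes turned except that of Nfkb1, whose range over all alternatives was −0.15 to 0.25. The number of the 10 called higher was 5, and between 5 and 7 with DESeq2, limma-voom, other scalings and other filters (Bcl3 was not tested at a minimum mean of 5 CPM). Leaving out 1 library gave 1 to 7 of them, and none was ever called lower. Over the pathway lists the same omission gave 2 to 21 genes higher and 0 to 8 lower, for the KEGG list 2 to 11 and 0 to 11, and over all genes 120 to 2030 calls against 1191. DESeq2 called 1899 genes. Over all tested genes, deviations from the group means were hardly correlated between same-numbered libraries (r of 0.0451, 0.0377 and −0.03). With 3 libraries per group this cannot show whether the numbers pair the samples. With a replicate block 6 of the 10 genes were called (Rel and Nfkbia gained, Rela lost), 17 pathway genes were higher and 7 lower, 8 and 9 of the KEGG list, and 1238 genes over all. Why the counts moved was not tested. Levels per gene length from CPM were not run, since the table holds no length column. Low counts limit Bcl3 and Relb most.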
